A study of Mus musculus with 8 samples.

Results

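A set of 8 genes of the B lineage, out of 48709 genes in the deposited expression table, were followed through monocyte development in mouse bone marrow. They are Cd79a, Cd79b, Ighm, Ighd, Cd22, Blnk, Pax5 and Ebf1, taken by gene name. They were selected on their TPM values (transcript abundance normalised for length and depth), which had been seen. The set was proposed as higher in MDP than in cMoP and in Ly6Clo than in Ly6Chi, so those differences are given as a description with no test. Cd79b was not clearly higher in MDP, where its level lay between those of the cMoP libraries. The series title places the study in intron retention during monocytic differentiation. Polyadenylated RNA was sequenced in 8 libraries of 5 groups, all from bone marrow and, per the labels, primary cells, although a further label of every sample reads monocytic cell line. The MDP group (monocyte-dendritic cell progenitors) and the Ly6Clo group (monocytes low in the surface marker Ly6C) have 1 library each. The cMoP group (common monocyte progenitors) and the Ly6Chi group (monocytes high in Ly6C) have 2 libraries each. The last group holds 2 libraries of Ly6Chi monocytes with a knockout of Upf2, a factor of nonsense-mediated decay, and is called the knockout here. The first 4 groups are labelled wild type and untreated, and all 5 are labelled healthy. The descriptions of the 4 cMoP and Ly6Chi libraries also carry the term FL_FL, which the labels do not explain and which MDP and Ly6Clo lack. What it stands for therefore cannot be told apart from the cell type in cMoP against MDP or in Ly6Clo against Ly6Chi. The way the cells were isolated, the knockout's Cre driver, and the strain, sex and age of the mice are not given in the sources used here. Whether the replicates are different mice is not stated, and the p-values then measure only how these libraries vary, which may be technical.

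B cells recognise antigen through a receptor made of membrane immunoglobulin and a signalling pair, CD79a and CD79b. Antigen binding leads to phosphorylation of that pair, and the adaptor BLNK then links the kinase SYK to downstream enzymes, while CD22 is an inhibitory co-receptor. The transcription factors EBF1 and PAX5 establish and hold B cell identity, and MDP, cMoP and monocytes are not B cells.

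The labelled identities were checked first. Flt3, a progenitor receptor, stood at 197 TPM in MDP and at 10.3 TPM or less elsewhere. Elane, a granule protease, stood at 5617 and 4842 TPM in cMoP and at 266 TPM or less elsewhere. Ly6c2 stood at 3439 and 4057 TPM in Ly6Chi, at 4472 and 4817 TPM in the knockout and at 62.8 TPM in Ly6Clo, where the nuclear receptor gene Nr4a1 reached 785 TPM. Upf2 itself stood at 20.2 and 18.2 TPM in Ly6Chi and at 20.4 and 22.5 TPM in the knockout. Reads spliced from its exon 2 to exon 3 numbered 41 and 45 in Ly6Chi and 10 and 13 in the knockout. Spliced reads totalled between 28925018 (Ly6Clo) and 37833159 (cMoP replicate 2) per library. Spliced reads leaned more to the 3′ introns of genes in cMoP and the knockout than in the other libraries. The log2 ratio of 3′ over 5′ introns, as the median of 6933 genes, was between 0.56 and 0.79 in the first and between 0.38 and 0.43 in the second. The part of that lean in the results below was not tested.

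Sequences are shown for the promoter of Cd79a, the receptor gene against which the others are compared, and for an octamer and an exon of Blnk. The data bear on the exon and not on the octamer. RefSeq windows of 300 bases (build GRCm38.p6) matched 5 of the 8 genes, Cd79a, Cd22, Blnk, Ebf1 and Pax5. The stretch of the Cd79a window that lies before the GENCODE gene start is on the plus strand at chr7:24897247-24897380, with capitals marking the core of Ets factor sites (GGAA or TTCC).
Cd79a: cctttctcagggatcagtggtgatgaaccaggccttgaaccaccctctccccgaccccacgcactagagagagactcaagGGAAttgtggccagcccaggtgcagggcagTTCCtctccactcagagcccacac
The Blnk window holds an octamer, shown with its flanks on the minus strand at chr19:40994333-40994362, with the octamer in capitals. Unlike the Cd79a stretch, it lies within the GENCODE gene (40928927 to 40994535) and not before its start.
Blnk octamer: tactggaagggATTTGCATgcccaataagg
A match to a motif is a description of letters and not a binding site. Both strands were searched, and matches of different motifs may overlap. The Ets core occurred in 96.0% of all 32851 windows and in those of all 5 genes. The octamer (ATGCAAAT on either strand) occurred in 1.74% of windows, and among the 5 genes in Blnk alone. The EBF1 palindrome (TCCCNNGGGA) occurred in 0.904% of windows, and among the 5 genes in Cd22 alone. The E-box (CANNTG) occurred in 72.3% of windows and in those of Cd79a, Cd22, Blnk, Pax5 and 1 of the 2 Ebf1 windows.

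The receptor's signalling pair did not share a pattern. Cd79a (chromosome 7, 24897381 to 24902197, plus strand) stood at 2.17 TPM in MDP, 0.28 and 0.16 TPM in cMoP, 0.49 and 0.96 TPM in Ly6Chi, 0.32 and 0.54 TPM in the knockout and 8.61 TPM in Ly6Clo. The Ly6Clo and MDP libraries were thus the highest, and Ly6Clo was 3.97-fold above MDP. Cd79b (chromosome 11, 106311341 to 106314762, minus strand) stood at 39.0 TPM in MDP, 43.6 and 35.5 TPM in cMoP, 16.9 and 15.7 TPM in Ly6Chi, 13.3 and 12.1 TPM in the knockout and 35.4 TPM in Ly6Clo. Its MDP level lay between those of the cMoP libraries, and every library held more Cd79b than the highest library held of Cd79a, per length. The label under which the 8 genes were grouped, B lineage genes of MDP and Ly6Clo, therefore does not describe Cd79b.

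Among the immunoglobulin heavy chain genes, which encode the antigen-binding part of the receptor, Ighm was high everywhere and Ighd was not. Ighm (IgM constant region, chromosome 12, 113418558 to 113422730, minus strand) stood at 633 TPM in MDP, 441 and 229 TPM in cMoP, 501 and 506 TPM in Ly6Chi, 370 and 377 TPM in the knockout and 699 TPM in Ly6Clo. Its highest library was 3.05-fold above its lowest, and no pair of neighbouring groups was further apart than the cMoP replicates were from each other. Ighd (IgD constant region, chromosome 12, 113406604 to 113416324, minus strand) stood at 9.99 TPM in MDP, 1.41 and 0.24 TPM in cMoP, 0.95 and 1.29 TPM in Ly6Chi, 0.74 and 0.63 TPM in the knockout and 4.31 TPM in Ly6Clo. It was the 1 gene of the 8 that was higher in MDP than in Ly6Clo by more than its replicate spread. The cMoP replicates differed 5.88-fold in Ighd.

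The inhibitory co-receptor and the adaptor stood above 1 TPM in MDP and Ly6Clo alone. Cd22 (chromosome 7, 30865402 to 30880342, minus strand) stood at 7.51 TPM in MDP, 0.14 and 0.10 TPM in cMoP, 0.45 and 0.39 TPM in Ly6Chi, 0.17 and 0.46 TPM in the knockout and 13.65 TPM in Ly6Clo. Blnk (chromosome 19, 40928927 to 40994535, minus strand) stood at 5.26 TPM in MDP, 0.34 and 0.35 TPM in cMoP, 0.60 and 0.33 TPM in Ly6Chi, 0.95 and 0.75 TPM in the knockout and 10.9 TPM in Ly6Clo. In both genes the Ly6Clo library was the highest and the MDP library came next. Cd22 was 62.6-fold higher in MDP than in the cMoP mean and Blnk 15.2-fold higher. One gene on the opposite strand, Gm29439, overlaps Cd22.

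The transcription factors were at or under 1.03 TPM in every library. Pax5 (chromosome 4, 44524757 to 44710487, minus strand) stood at 0.30 TPM in MDP, 0.05 TPM in both cMoP, 0.06 and 0.17 TPM in Ly6Chi, 0.01 and 0.02 TPM in the knockout and 1.03 TPM in Ly6Clo. Ebf1 (chromosome 11, 44617317 to 45008091, plus strand) stood at 0.16 TPM in MDP, 0.04 and 0.01 TPM in cMoP, 0.05 and 0.15 TPM in Ly6Chi, 0.14 and 0.01 TPM in the knockout and 0.40 TPM in Ly6Clo. Both were highest in Ly6Clo, and the MDP level of Ebf1 did not stand clear of Ly6Chi replicate 2. Genes on the opposite strand overlap both, 3 at Pax5 and 1 at Ebf1.

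**Figure D1:**
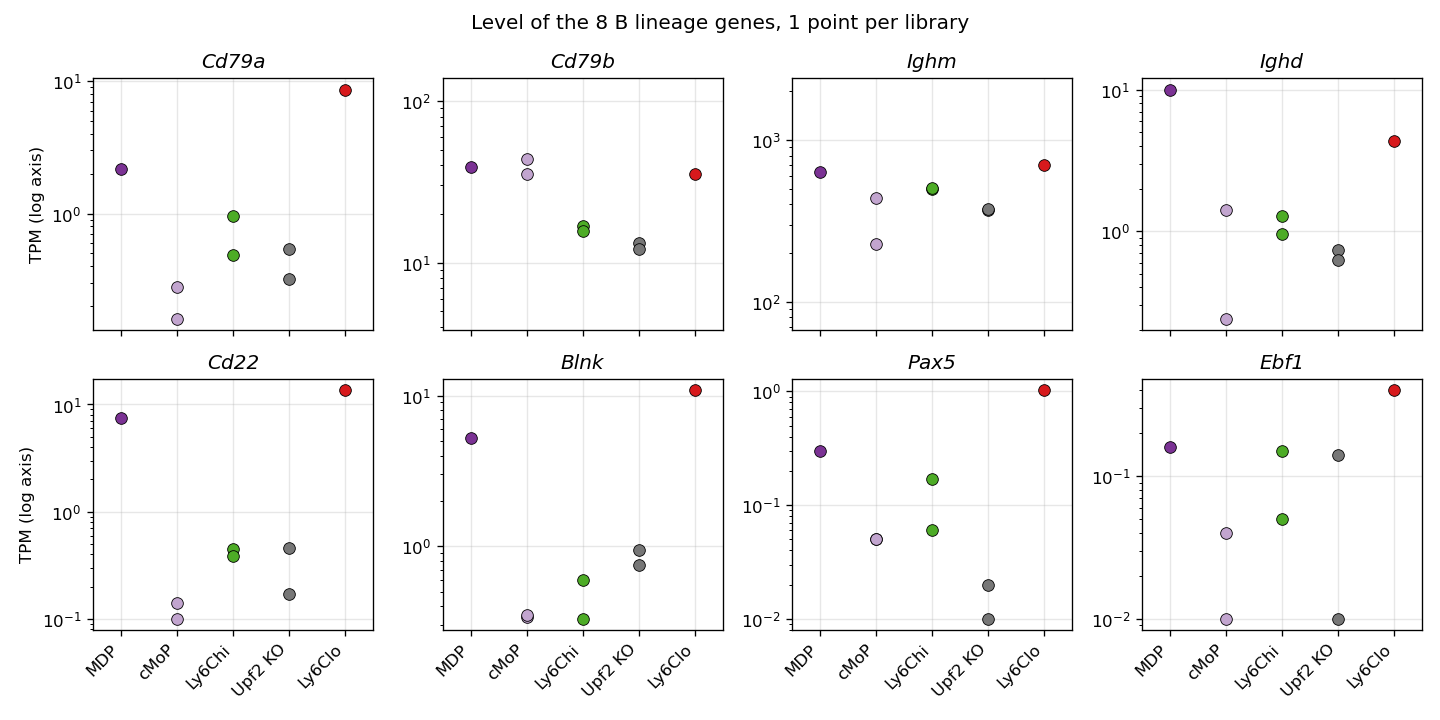
Level of each of the 8 genes in TPM (log axis, each panel with its own range), with 1 point per library and groups along the x axis. Cd22 and Blnk stand above 1 TPM in MDP and Ly6Clo alone, whereas Cd79b is as high in cMoP as in MDP and Ighm is above 228 TPM in all 8 libraries.

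The expression table gives no counts, so the depth behind these levels was taken from reads spliced at the annotated introns, with exact Poisson intervals that cover counting error only. The intron tables list introns for 6 of the 8 genes, Ighm and Ighd being the exceptions. Cd79a had 33 spliced reads in MDP and 125 in Ly6Clo, with 4 and 5 in the cMoP libraries, 7 and 14 in the Ly6Chi libraries and 4 and 6 in the knockout. Scaled to 1000000 spliced reads in a library, that is 1.13 (95% interval 0.781 to 1.59) in MDP and 4.32 (3.60 to 5.15) in Ly6Clo. Pax5 had 10 spliced reads in MDP and 32 in Ly6Clo, and between 0 and 3 in each of the other libraries. Ebf1 had 16 in MDP, 34 in Ly6Clo and between 0 and 4 in each of the others. The reads of Pax5 in Ly6Clo were spread over 11 introns and those of Ebf1 over 12, so that these low levels rest on spliced transcripts. Cd22 had 230 reads in MDP and 517 in Ly6Clo, and Blnk 463 and 893. Differences in Pax5 and Ebf1 among cMoP, Ly6Chi and the knockout were not detectable at this depth.

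The levels of the 8 genes did not stand in 1 ratio between the Ly6Clo and MDP libraries. By depth-scaled spliced reads the Ly6Clo to MDP ratio was 3.81 (exact 95% interval 2.58 to 5.78) for Cd79a, 3.22 (1.54 to 7.34) for Pax5 and 2.14 (1.15 to 4.15) for Ebf1. It was 2.26 (1.93 to 2.65) for Cd22, 1.94 (1.73 to 2.18) for Blnk and 0.914 (0.838 to 0.996) for Cd79b. Blnk and Cd79b thus have intervals that lie wholly below that of Cd79a. By TPM, Ighm was 1.10-fold and Ighd 0.431-fold of its MDP level. Among markers of mature B cells the ratio was 4.11 (2.15 to 8.49) for Ms4a1, which encodes CD20. Cd72, another B cell co-receptor gene, was at 0.833 (0.719 to 0.965), and Bank1, a scaffold of B cell signalling, at 16.3 (10.2 to 27.4). Bank1 stood at 3.11 and 2.18 TPM in Ly6Chi too, against 0.29 TPM in MDP. The ratios of Blk (1.51), Fcer2a (1.68), Fcrla (2.11) and Fcmr (5.03) had intervals that overlapped that of Cd79a, as did Ms4a1. The intervals of H2-Ob (0.824), Ralgps2 (0.832), Spib (0.918) and Tnfrsf13b (1.71) lay below it, and that of Fcrl1 (9.97) above it. Dntt, the enzyme that adds bases at immunoglobulin joints in early lymphocytes, was at 0.0109 (0.00783 to 0.0149).

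**Figure D2:**
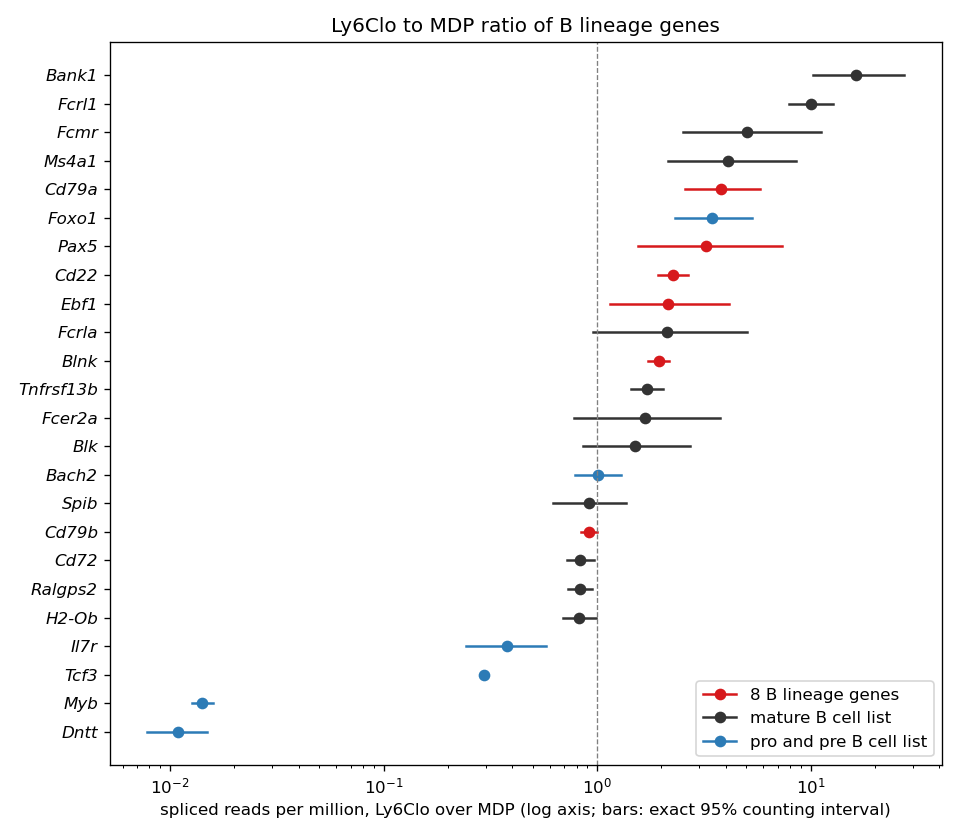
Ratio of depth-scaled spliced reads in Ly6Clo to those in MDP (log x axis) for 24 of the 25 B lineage genes with at least 10 spliced reads in each (1 is not reported here), with exact 95% intervals for counting error. Cd79a lies at 3.81 between Foxo1 and Ms4a1, whereas Cd79b lies at 0.914 beside Cd72 and H2-Ob.

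Levels were also set relative to Cd79a within a library, for genes chosen after their values were seen. In TPM relative to Cd79a, Igkc (the kappa light chain constant region) stood at 39.7 in MDP and 41.6 in Ly6Clo, and Pax5 at 0.138 and 0.120. Cd22 stood at 3.46 in MDP and 1.59 in Ly6Clo, Blnk at 2.42 and 1.26, and Cd79b at 17.99 and 4.11. Bank1 moved the other way, from 0.134 in MDP to 0.585 in Ly6Clo. Between the replicates of Ly6Chi, the ratio of replicate 2 to replicate 1 in TPM was 1.96 for Cd79a, 2.83 for Pax5, 3.00 for Ebf1, 0.867 for Cd22, 0.550 for Blnk and 0.934 for Cd79b. By spliced reads it was 1.84 (exact 95% interval 0.693 to 5.37) for Cd79a, 1.22 (0.207 to 8.35) for Ebf1 and 0.793 (0.4997 to 1.25) for Blnk, so that a difference between these replicates was not detectable at this depth in those 3 genes. Igkc stood at 68.7 TPM in replicate 1 and 238 TPM in replicate 2. In bulk RNA, fewer cells of a type and less RNA per cell cannot be told apart, and whether these levels come from a few B cells in a library or from the labelled cells was not tested.

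Immunoglobulin transcripts were also read through the variable segments, each of which is used by a part of all B cells. Whether these transcripts were rearranged was not tested. Of 185 heavy chain variable (Ighv) segments, 64 had a level above 0 in MDP and 74 in Ly6Clo, with 27 and 19 in the cMoP libraries, 56 and 63 in the Ly6Chi libraries and 57 and 43 in the knockout. Their levels summed to 45.8 TPM in MDP, 28.6 and 15.4 TPM in cMoP, 56.0 and 112 TPM in Ly6Chi, 34.5 and 25.7 TPM in the knockout and 175 TPM in Ly6Clo. Of 160 kappa variable (Igkv) segments, 56 were above 0 in MDP and 69 in Ly6Clo, with sums of 64.9 and 289 TPM. The Ly6Clo to MDP ratio of the sums was 3.82 for Ighv, 4.45 for Igkv and 3.94 for the 3 Iglv segments. The highest single Ighv or Igkv segment held 5.92% of the joint sum in MDP and 5.81% in Ly6Clo. The highest Ighv were Ighv1-82 (3.20 TPM) and Ighv1-53 (2.47 TPM) in MDP and Ighv9-3 (8.52 TPM) and Ighv1-26 (7.95 TPM) in Ly6Clo. The highest Igkv was Igkv1-110 in both, at 6.55 TPM in MDP and 26.9 TPM in Ly6Clo. Many segments are near-identical copies, so that the split of reads between them is uncertain. Variable segments were above 0 in cMoP and the knockout too, where Cd79a was at most 0.54 TPM.

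**Figure D3:**
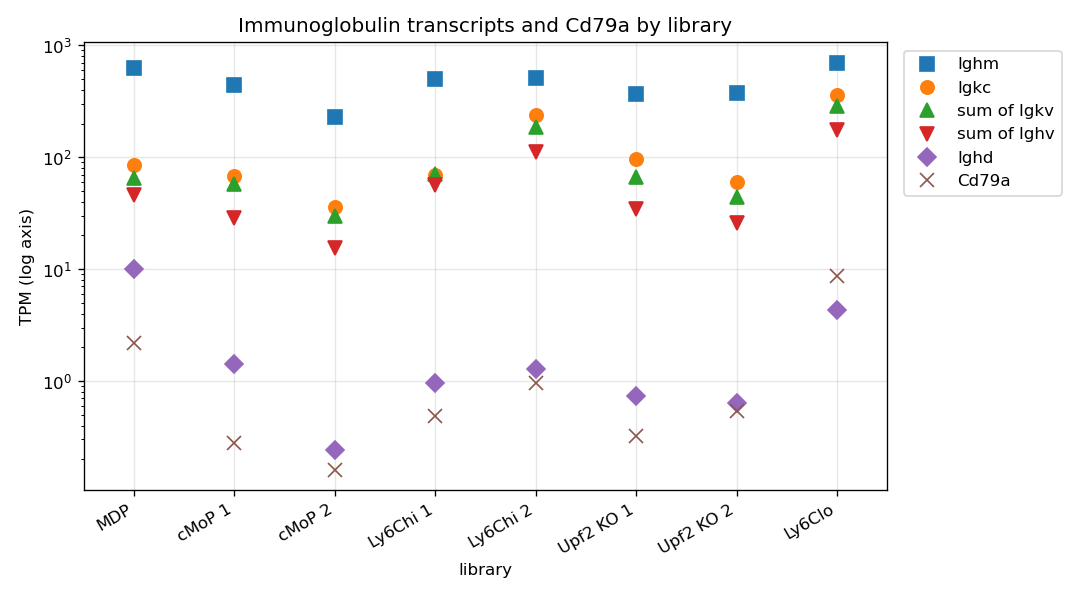
Level in TPM (log y axis) of Ighm, Igkc, Ighd and Cd79a and the summed level of the Igkv and Ighv segments, by library along the x axis. Igkc and both sums are highest in Ly6Clo and second highest in Ly6Chi replicate 2, while Ighm varies 3.05-fold over all 8 libraries.

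Markers of other cells were present beside the 8 genes. All 18 mature B cell genes of the list were measured, and 8 reached 1 TPM in 2 libraries and were tested. With limma on log2(TPM + 1) and adjusted p under 0.05, 5 of the 8 rose in Ly6Clo against Ly6Chi (5.9% of all 13126 tested genes rose) and 3 fell in cMoP against MDP (2.52% of all tested genes fell, and 1.35% rose). Spib and Fcrla, 2 of those 5, reached 1 TPM in MDP and Ly6Clo alone, as did 135 of all tested genes. They were tested only through the libraries in which they are high, so nothing is read from these counts against the shares of all genes. All log2 changes are given relative to the median gene's change, and the p refers to the change before that shift, which was -0.28 for cMoP against MDP, 0.19 for Ly6Chi against cMoP, 0.04 for Ly6Clo against Ly6Chi and -0.12 for the knockout. Cd72 rose by 3.46 ± 0.29 (SE, adjusted p = 0.0015) in Ly6Clo and fell by 3.70 ± 0.29 (adjusted p = 0.0046) in cMoP. H2-Ob, which tunes antigen loading, rose by 2.37 ± 0.35 in Ly6Clo (adjusted p = 0.0096). Calls against MDP and Ly6Clo rest on single libraries. The genes tested over all lists include Vpreb3, Ly6d, Lag3 and Klrd1, which like Spib and Fcrla were tested only through those libraries. The lists were also chosen with earlier results known. Nothing is therefore read from the totals below against the shares of all genes given above, beside 7.12% that fell in Ly6Clo against Ly6Chi. Over all lists 22 of 85 genes passed in cMoP against MDP, but 0 when limma was fitted on those groups alone, 52 without cMoP replicate 1. Leaving out a Ly6Chi library gave 12, whichever it was, and leaving out a knockout library gave 10. In Ly6Clo against Ly6Chi 27 passed, but 14 without either Ly6Chi replicate and 47 without either cMoP replicate. With the median gene set to no change, 408 of all genes rose and 295 fell in cMoP against MDP, in place of 177 and 331.

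The 17 genes of the pro and pre B cell list summed to 493 TPM in MDP, of which Myb and Tcf3, which are not particular to B cells, made up 397 TPM. Without Myb, Tcf3, Dntt and Ikzf3 the list summed to 21.7 TPM in MDP, 4.26 and 2.24 TPM in cMoP, 8.58 and 7.79 TPM in Ly6Chi, 5.65 and 6.02 TPM in the knockout and 29.99 TPM in Ly6Clo. Vpreb1, which encodes a part of the surrogate light chain, stood at 3.02 TPM in MDP, 1.05 and 0.78 TPM in cMoP and 1.30 TPM in Ly6Clo. The recombinase gene Rag2 stood at 2.82 TPM in MDP and 0.13 TPM in Ly6Clo. Other genes of the list went the other way, Rag1 from 0.24 TPM in MDP to 0.68 TPM in Ly6Clo and Vpreb2 from 0 to 0.42 TPM. Igll1 stood at 1.02 TPM in MDP, 1.32 and 0.48 TPM in cMoP and 1.17 TPM in Ly6Clo. Bach2, a transcriptional repressor, fell by 2.32 ± 0.32 in cMoP against MDP (limma, adjusted p = 0.018) and rose by 1.44 ± 0.32 in Ly6Clo against Ly6Chi (adjusted p = 0.038). Bach2 was 1 of 7 genes tested, with a list median of -0.56 in cMoP against MDP and 0.73 in Ly6Clo against Ly6Chi. Vpreb3, another of the 7, reached 1 TPM in MDP (1.14 TPM) and Ly6Clo (3.07 TPM) alone and was tested only through these libraries. Dntt stood at 73.8 TPM in MDP and at 0.88 TPM or less elsewhere. Ikzf3, which encodes the lymphoid factor Aiolos, stood at 75.7 TPM in Ly6Clo and at 0.85 TPM or less elsewhere. Neither was tested, because each reached 1 TPM in 1 library. The 9 tested plasmacytoid dendritic cell genes had a median change of -2.13 in cMoP against MDP and 0.67 in Ly6Clo against Ly6Chi. Ly6d and Lag3 among them reached 1 TPM in MDP and Ly6Clo alone and were tested only through these libraries. Cox6a2 fell by 3.88 ± 0.27 (limma, adjusted p = 0.0031). Siglech, a defining marker of that cell type, stood at 14.2 TPM in MDP and 0.93 TPM in Ly6Clo. The other defining marker, Ccr9, stood at 0.25 TPM in MDP and 0.42 TPM in Ly6Clo. Klk1, Pacsin1 and Ptcra of the same list were at 0.34 TPM or less in MDP. The 12 T and NK cell genes summed to 15.2 TPM in MDP, 12.8 TPM in Ly6Clo and between 0.68 and 2.75 TPM in the other libraries. Klrd1 made up 8.10 TPM of this in MDP and 8.34 TPM in Ly6Clo, and Lck 4.06 and 0.84 TPM. Cd3d, Cd3g, Trac, Cd8a and Ncr1 were at 0.79 TPM or less in every library. Cd3e stood at 0.09 TPM in MDP and 0.20 TPM in Ly6Clo, against 0.25 TPM in Ly6Chi replicate 1. The part of these markers in the levels of the 8 genes was not tested.

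Immunoglobulin genes and some genes of the plasma cell list were found in every library. The 10 constant region genes, Ighm and Ighd not among them, summed to 133 TPM in MDP, 98.0 and 47.9 TPM in cMoP, 122 and 375 TPM in Ly6Chi, 160.2 and 106 TPM in the knockout and 551 TPM in Ly6Clo. The joining chain gene Jchain stood at 5.11 TPM in MDP and 26.9 TPM in Ly6Clo. Of the same plasma cell list, Xbp1 stood between 93.2 and 262 TPM in all libraries, whereas Tnfrsf17 was at 0.22 TPM or less. Tnfrsf17 was lower in Ly6Clo (0.15 TPM) than in MDP (0.22 TPM). Mzb1 stood at 1.94 TPM in Ly6Clo and at 0.56 TPM or less elsewhere. Of 9 constant region genes tested, 2 rose in Ly6Chi against cMoP, Igha by 2.05 ± 0.53 (adjusted p = 0.015) and Iglc2 by 1.31 ± 0.29 (adjusted p = 0.0076), where 32.3% of all tested genes rose. In Ly6Clo against Ly6Chi 1 of the 9 rose, Iglc3 by 1.54 ± 0.36 (adjusted p = 0.044), and of 7 plasma cell genes tested 4 rose and 0 fell, with a median of 1.34, where 5.9% of all tested genes rose and 7.12% fell.

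Ly6Chi against cMoP and the knockout against Ly6Chi were not the comparisons used to choose the genes, and were tested. Both reuse libraries whose values entered that choice, so these tests are not independent of it. In Ly6Chi against cMoP, 1 of the 6 genes with enough signal passed, and it fell. The gene that passed was Cd79b, which fell by 1.41 ± 0.16 on the log2 scale (limma, adjusted p = 0.0023, both Ly6Chi libraries below both cMoP libraries). Cd79a, Cd22 and Blnk had entered the test through MDP and Ly6Clo alone, so nothing is read from their p-values. Of all tested genes 23.3% fell and 32.3% rose in this comparison (3053 and 4235 genes, or 4462 and 3354 with the median gene set to no change). The other 5 had changes of 0.29 ± 0.21 for Cd79a (limma, adjusted p = 0.092), 0.15 ± 0.18 for Cd22 (0.16), -0.08 ± 0.18 for Blnk (0.60), 0.47 ± 0.29 for Ighm (0.10) and 0.10 ± 0.33 for Ighd (0.48). Without cMoP replicate 1, Ighm (change 0.81, adjusted p = 0.00079) and Ighd (0.45, adjusted p = 0.018) passed too. On spliced reads tested with edgeR, Cd22 passed as well (change 1.52, adjusted p = 0.036), from 7 and 2 reads in cMoP and 12 and 12 in Ly6Chi. Pax5 and Ebf1 did not reach the level needed for the test.

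In the knockout against Ly6Chi, 0 of the 6 genes passed, also at an unadjusted p under 0.05. Cd79a, Cd22 and Blnk had entered this test through MDP and Ly6Clo alone, so nothing is read from their p-values. Of all 13126 genes tested by limma 0.00762% passed (1 gene), and 1910 had an unadjusted p under 0.05. On spliced reads, 0 of the genes with listed introns passed with edgeR and with DESeq2. The largest relative change was that of Blnk, 0.46 ± 0.18 (limma, adjusted p = 0.39), with 0.95 and 0.75 TPM in the knockout and 0.60 and 0.33 TPM in Ly6Chi. The limma scale understates changes of low genes. Blnk had 98 and 76 spliced reads in the knockout and 44 and 38 in Ly6Chi. Scaled for depth as above, these were 2.98 (95% interval 2.42 to 3.63) and 2.42 (1.91 to 3.03) in the knockout. In Ly6Chi they were 1.40 (1.02 to 1.88) and 1.11 (0.79 to 1.52). The knockout intervals lay above those of Ly6Chi, but they cover counting error only. Cd79b changed by -0.22 ± 0.16 (limma, adjusted p = 0.36).

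Genes that act downstream of the receptor were expressed in all groups. Of 26 such genes 25 were tested, and 20 rose and 1 fell in Ly6Chi against cMoP, with a list median of 1.17, where 32.3% of all tested genes rose and 23.3% fell. With the median gene set to no change 3354 of all genes rose and 4462 fell. Pirb, an inhibitory receptor, rose by 6.06 ± 0.37 (limma, adjusted p = 0.00022), the kinase gene Prkcb by 3.44 ± 0.24 (adjusted p = 0.00030) and the kinase gene Lyn by 2.44 ± 0.14 (adjusted p = 0.00019). Cd81, a tetraspanin of the B cell co-receptor, fell by 3.14 ± 0.24 (adjusted p = 0.00056). In Ly6Clo against Ly6Chi the list median was 0.14, and Cd81 rose by 3.92 ± 0.29 and Pik3ap1 by 3.33 ± 0.34. Cd81 and Cd79b both fell in Ly6Chi, and Cd81 stood at 46.2 TPM in MDP and 60.8 TPM in Ly6Clo.

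Genes whose levels moved most like those of each tested gene were named by Pearson's r over the 8 libraries, as a description. For Cd79a they included Rab10 and Peg13 (r = 0.99 each), with 62 genes above 0.95. For Cd22 they were Lag3 (r = 0.997), Mir6244 and Gm20528 (both 0.99), and for Blnk Zbtb46, Gm27421 and Gm20528 (0.99 each). For Cd79b they were Rmnd1, 4930430F08Rik and Gaa (0.99 each), for Ighd Ldb1 (0.99), Spice1 and Clec9a (both 0.98), and for Ighm Rnf123, Pisd-ps2 and Ranbp6 (0.99 each). Among the 8 genes themselves, r was 0.98 for Cd22 with Blnk, 0.94 for Cd79a with Cd22 and 0.34 for Cd79a with Cd79b. The points share libraries, 2 of which dominate the range, and the 3′ lean.

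Intron retention was measured by reads that cross an exon-intron boundary, set beside spliced reads. Of all boundary and spliced reads over unmarked introns, between 3.97% (cMoP replicate 2) and 7.31% (Ly6Clo) crossed a boundary. Cd79b was at 3.04% in MDP (Wilson 95% interval 2.19 to 4.20, 35 boundary reads), 2.56% and 1.89% in cMoP, 2.79% and 3.97% in Ly6Chi, 2.43% and 3.00% in the knockout and 5.37% in Ly6Clo (4.17 to 6.90, 57 boundary reads). Cd22 was at 13.1% in MDP (9.07 to 18.5) and 9.60% in Ly6Clo (7.16 to 12.8). Cd79a was at 5.56% in MDP (1.54 to 18.1) and 9.15% in Ly6Clo (5.43 to 15.03). Cd79b and Blnk had enough reads for the test, and 0 of the 2 passed in Ly6Chi against cMoP or in the knockout against Ly6Chi, also at an unadjusted p under 0.05 and with DESeq2. The relative change of Cd79b was 0.31 ± 0.38 (edgeR's quasi-likelihood test, adjusted p = 0.44) in the first and -0.09 ± 0.43 (adjusted p = 0.82) in the second. Over all 8112 genes tested 0.0123% passed in the first comparison and 0.0247% in the second.

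Most boundary reads of Blnk lay at 1 intron. It is intron 13 of 16 (chr19:40937719-40939366, between coding exons), with 38 of 66 boundary reads in MDP and 74 of 127 in Ly6Clo. Of those, 34 in MDP and 69 in Ly6Clo crossed its 3′ end. No read in either was spliced at that end, and 33 and 61 were spliced at its 5′ end. GENCODE holds a longer form of the next exon, exon 14 of 17 at chr19:40937651-40937727 on the minus strand, whose first 9 bases, in capitals, are intronic in the shorter form.
Blnk exon 14: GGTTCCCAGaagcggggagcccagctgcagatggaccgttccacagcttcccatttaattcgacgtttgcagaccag
Reads that run into these 9 bases are counted as boundary reads of the intron listed for the shorter form. Without that intron, Blnk was at 5.68% (3.96 to 8.09) in MDP and 5.57% (4.29 to 7.22) in Ly6Clo, against 11.7% in both with it.

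**Figure D4:**
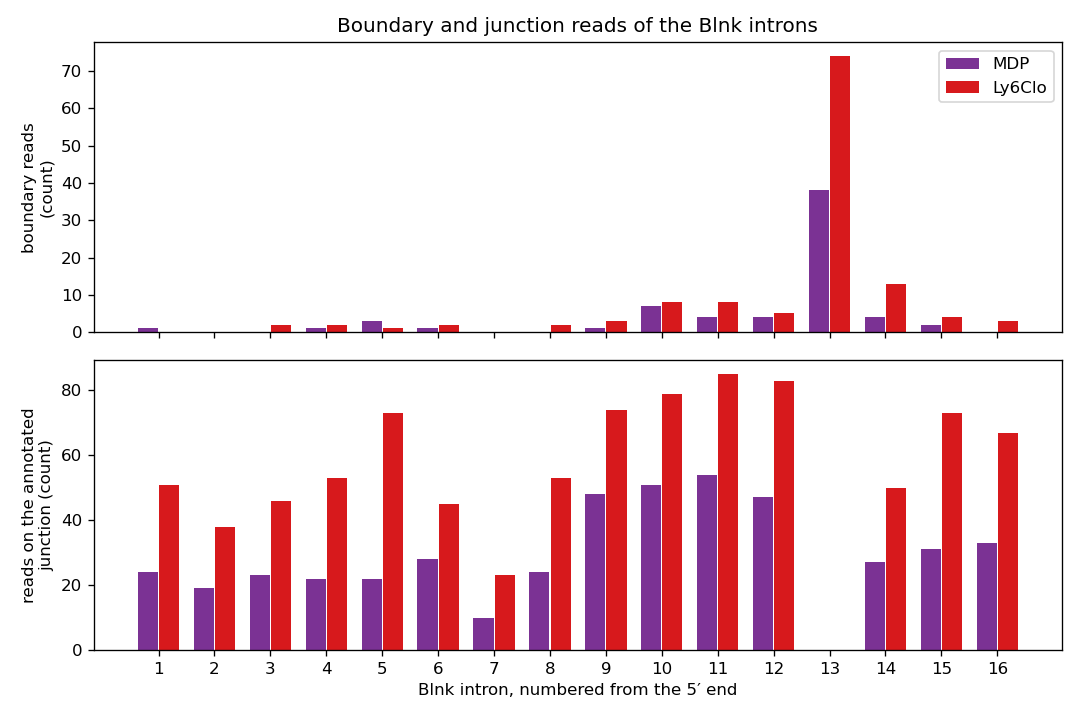
Boundary reads (upper panel) and reads on the annotated junction (lower panel), as counts, for the 16 Blnk introns numbered from the 5′ end, in MDP and Ly6Clo. Intron 13 has the most boundary reads, 38 and 74, and no read on its annotated junction.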

How the data were processed

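The deposited expression table and 8 deposited intron tables were used. FastQC, Trimmomatic, STAR 2.5.2a and RSEM, with mm10 beside a human build, are named per the submitters' processing notes. Reads were paired, strand-specific and 100 bases long, per the labels' protocols. The expression table is named for FPKM, but its columns sum to 999999 or 1000000, so the authors' values were treated as TPM and tested as planned for normalized values. In the intron tables the authors' whole-number counts are reads across each boundary and spliced reads. The deposited signal (intron coverage) and the deposited fraction (retention ratio) were not used.

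Expression was fitted with limma 3.58.1 (moderated, with an intensity trend) using log2(TPM + 1) of 13126 genes with at least 1 TPM in 2 or more libraries. All 8 libraries shared 1 estimate of the spread, and MDP and Ly6Clo, with 1 library each, were taken to have the spread of the groups with replicates. Log2 changes on this scale understate those of low genes. Retention was fitted with edgeR 4.0.16 (quasi-likelihood) on gene sums of boundary reads relative to spliced reads, over genes with at least 20 reads in every library and 20 boundary reads in all. Introns that the tables mark for an overlapping exon or antisense gene were left out. Benjamini-Hochberg adjustment used a threshold of 0.05. The fits were tested on simulated data. Spliced reads tested with edgeR and DESeq2 1.42.0 were alternatives, beside other pseudocounts, filters and scalings, and each replicate left out.

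The genes and the 9 gene lists were chosen with earlier results of these data known. Named list genes are up to 4 per list and comparison that passed, by size, and the 3 highest in MDP and Ly6Clo. Genes compared by ratio had at least 10 spliced reads in both libraries. Ratios to Cd79a and between Ly6Chi replicates were chosen after their values were seen. Positions are GENCODE M21 on GRCm38, 1-based. Some listed genes are not reported here.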

Additional observations from a re-analysis of the deposited data

How the results depend on the processing

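Cd79b fell in Ly6Chi against cMoP under all 15 alternatives, by 1.23 to 1.49 on the relative log2 scale. The number of the 8 genes that passed there was 1, except 2 with edgeR on spliced reads, and 1 to 3 with each replicate left out. In the knockout, and for retention, it was 0 under every alternative run. List genes that passed in cMoP against MDP numbered 22, but 13 with a pseudocount of 0.1, 40 with no filter, 0 with only the groups compared, 36 with DESeq2 and 10 to 52 with each replicate left out. In Ly6Clo against Ly6Chi they numbered 27, but 48 with no filter and 14 to 47 with each replicate left out. Of 1030 values of named list genes under an alternative, 856 kept their side of the threshold and 174 did not pass, and 0 changed direction. The cause of these shifts was not tested.

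Of the tested values that changed sign, none passed in the reported fit or in that alternative. Blnk in Ly6Chi against cMoP was 0.073 with a pseudocount of 0.1, 0.11 with no filter and 0.32 with edgeR and with DESeq2 on spliced reads, and -0.21 to 0.061 with each replicate left out. Ighd there was -0.25 to 0.45 with each replicate left out. In the knockout, Cd22 was -0.27 with a pseudocount of 0.1, -0.11 with no filter, -0.012 with 1 TPM in 1 library, -0.024 with quantile normalisation and -0.13 with edgeR and DESeq2 on spliced reads. With each replicate left out it was -0.12 to 0.12, and Cd79a -0.37 to 0.083. Retention of Blnk was -1.20 to 4.92 in Ly6Chi against cMoP and -0.042 to 0.14 in the knockout with each replicate left out, since cMoP replicate 1 has 0 boundary reads in Blnk. It was -1.54 in the knockout with only introns whose annotated junction is in use, an alternative chosen after seeing the data. Retention of Cd79b in the knockout was -0.34 to 0.18 with each replicate left out. The difference in Cd79b between MDP and cMoP was -0.15 to 0.13 with either cMoP replicate left out.

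Same-numbered libraries deviated together with r of 0.06 for cMoP and Ly6Chi, -0.14 for cMoP and the knockout and -0.13 for Ly6Chi and the knockout. With 2 libraries per group, these values cannot tell whether same-numbered libraries share a mouse or a batch. With the replicate block, 1 gene passed in Ly6Chi against cMoP (Cd79b, adjusted p = 0.0059) and 0 in the knockout, as without it.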
